A study of Mus musculus with 9 samples.

Results

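Enpp2, Pla2g7 and Ptgs2 encode enzymes that make or destroy short-range lipid signals, and their messenger RNA was followed across 9 libraries of NIH 3T3, a spontaneously immortal fibroblast line from mouse embryos. The 3 genes were taken by symbol from a table of 10340 genes. They were chosen by their FPKM values in these same libraries, which differed from the control group with both hairpins in an earlier look. Their differences from control are therefore described here without a test. The difference between the hairpins played no part in the choice and was tested, although the libraries are the same.

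All 9 cultures were transduced with a lentivirus carrying a short hairpin RNA and selected for it. The 3 shControl cultures carried a hairpin against red fluorescent protein, which mouse cells lack, and 3 cultures each carried shCNKSR2_1 or shCNKSR2_2, separate sequences directed at Cnksr2, whose product is a scaffold in the Ras pathway. Cnksr2 itself was not analysed here, so the comparisons are between hairpins and not between levels of the target. The cultures were treated as independent, although the sample titles do not say whether each was transduced separately. Each group has n = 3, except in fits that leave libraries out.

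Autotaxin, the secreted product of Enpp2, cleaves lysophosphatidylcholine to lysophosphatidic acid (LPA), a lipid that binds G protein-coupled receptors and drives fibroblast growth, contraction and movement. Pla2g7 encodes the secreted acetylhydrolase that inactivates platelet-activating factor (PAF), an inflammatory phospholipid, and that also cleaves oxidised phospholipids. Ptgs2 encodes the inducible cyclooxygenase COX-2, which turns arachidonic acid into prostaglandin H2, the parent of prostaglandin E2, prostacyclin and the other prostanoids. Fibroblasts induce Ptgs2 rapidly after serum, growth factors or cytokines.

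The libraries expressed all 10 of 10 fibroblast markers examined, among them Col1a2, Vim and Pdgfra. Their levels were not equal between groups. Means in shControl, shCNKSR2_1 and shCNKSR2_2 were 309, 317 and 231 FPKM for Col1a2. For Vim they were 1209, 1537 and 1733 FPKM, and for Pdgfra 35.0, 25.8 and 21.7 FPKM. Of 11 markers of macrophages and other blood cells, 2 were measured, Cd68 and Cd14, and of 6 endothelial and 6 epithelial markers 0 were. Values are FPKM, fragments scaled to transcript length and library size, which puts genes and libraries on a common scale. Rescaling the libraries changed the balance of higher and lower genes over the whole table, as given at the end. Depth is unknown. The table lists a gene only where it exceeded 1 FPKM in all 9 libraries, so a gene that crossed that level in any library was not measured. Across the whole table, shCNKSR2_1 replicate 1 lay apart from its group, at -1.71 on the first principal component against 5.98 and 4.63 for replicates 2 and 3 and -16.9 to -16.1 for the controls. RNA came from whole cultures, so fewer cells expressing a gene and less RNA per cell cannot be told apart.

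Enpp2 lies on mouse chromosome 15, Pla2g7 on chromosome 17 and Ptgs2 on chromosome 1. RefSeq promoter sequences on build GRCm38.p6 matched 2 of the 3, Pla2g7 and Ptgs2. The Ptgs2 promoter is shown because it is the textbook example of an early-response promoter and because Ptgs2 was the most abundant of the 3 genes. It covers 250 bases before the annotated start and the first 30 after it, on the plus strand at chr1:150099781-150100060. Capitals mark the motifs found.

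Ptgs2 promoter: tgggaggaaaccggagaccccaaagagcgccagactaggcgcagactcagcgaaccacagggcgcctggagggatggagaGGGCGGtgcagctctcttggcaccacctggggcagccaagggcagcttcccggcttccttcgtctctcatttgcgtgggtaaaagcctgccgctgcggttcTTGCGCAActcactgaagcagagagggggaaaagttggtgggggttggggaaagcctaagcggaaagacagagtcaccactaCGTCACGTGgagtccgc

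Capitals from left to right are a GC box (GGGCGG), a C/EBP motif (TTGCNNAA, found as TTGCGCAA) and a CRE core (TGACG, here on the minus strand) that shares 2 bases with an E-box (CACGTG). Positions counted from the annotated start are -170 to -165, -69 to -62, 14 to 18 and 17 to 22. In windows of the same 280 bases, searched on both strands, 34.7% of 32851 mouse promoters held the GC box, 10.4% the C/EBP motif, 19.9% the CRE core and 6.79% the E-box. The AP-1 motif (TGANTCA), a core promoter element searched for here as TATAAA, and the NF-kB motif had 0 matches in the Ptgs2 window, against 7.46%, 13.1% and 4.22% of promoters. Sequence outside these 280 bases was not searched, so the 0 matches do not show that Ptgs2 lacks these motifs. The window and all positions depend on the annotated start used. The Pla2g7 window held 1 GC box and 0 matches to the other 6 motifs. That window overlaps first exons of other annotated transcripts and is not printed. A match is a description of letters and says nothing about binding.

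Enpp2 was about 6-fold lower with either hairpin. In shControl its level was 7.10, 7.97 and 7.19 FPKM in replicates 1, 2 and 3. With shCNKSR2_1 it was 1.07, 1.35 and 1.20 FPKM, and with shCNKSR2_2 it was 1.22, 1.15 and 1.24 FPKM. Every control library lay above every hairpin library, while the ranges of the hairpin groups overlapped. Over all genes, 44.2% did not overlap between shCNKSR2_1 and control, and 59.6% between shCNKSR2_2 and control. As a share of all listed genes, 29.4% to 33.2% had a lower level than Enpp2 in controls. In shCNKSR2_1 replicate 1 only 7 of 10340 genes did, which places Enpp2 at the very floor of the table.

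Mean Enpp2 was 7.42 ± 0.480 FPKM (SD, n = 3) in controls, 1.20 ± 0.139 with shCNKSR2_1 and 1.21 ± 0.0453 with shCNKSR2_2. The control mean exceeded the hairpin means 6.16-fold in both cases. On the log2(FPKM + 1) scale, which pulls values near 1 FPKM together, the differences were -1.93 and -1.93 (SE 0.06). With 0.01 FPKM added in place of 1 they were -2.62 and -2.61. The hairpins differed from each other by 0.002 in log2(FPKM + 1) (95% interval -0.13 to 0.13, limma adjusted p = 0.983). Genes at or below 1 FPKM in any library are not listed, so a lower Enpp2 level with either hairpin could not have been seen.

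Pla2g7 stood at nearly the level of Enpp2 in controls and was higher with both hairpins. Control libraries held 6.72, 6.58 and 6.15 FPKM. Libraries with shCNKSR2_1 held 15.5, 18.01 and 17.7 FPKM, and those with shCNKSR2_2 held 22.4, 21.1 and 21.8 FPKM. No groups overlapped, and the order was shControl, then shCNKSR2_1, then shCNKSR2_2. Replicate 1 was the lowest library of shCNKSR2_1.

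Group means of Pla2g7 were 6.48 ± 0.297 for shControl, 17.1 ± 1.38 for shCNKSR2_1 and 21.8 ± 0.619 FPKM for shCNKSR2_2 (SD, n = 3). These means were 2.63-fold and 3.36-fold the control mean, differences of 1.27 and 1.61 in log2(FPKM + 1) (SE 0.06). Counted from the top, Pla2g7 ranked 5 of 10340 genes in both contrasts. It was higher with shCNKSR2_2 than with shCNKSR2_1 by 0.34 (SE 0.06, 95% interval 0.21 to 0.46, limma adjusted p = 0.00216), with every shCNKSR2_2 library above every shCNKSR2_1 library. Non-overlapping libraries were common, at 44.2% of all genes for shCNKSR2_1 against control, 59.6% for shCNKSR2_2 against control and 37.9% between the hairpins. Calls between the hairpins were made for 20.5% of all genes, 9.13% higher and 11.4% lower with shCNKSR2_2.

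Ptgs2 was an abundant transcript before any difference. It reached 93.4, 97.9 and 87.8 FPKM with shControl, above 92.6% to 93.4% of the listed genes. With shCNKSR2_1 it reached 151, 214 and 185 FPKM, and with shCNKSR2_2 218, 220 and 224 FPKM. Again all hairpin libraries lay above all control libraries, in contrasts where 44.2% (shCNKSR2_1) and 59.6% (shCNKSR2_2) of all genes did not overlap. Replicate 2 of shCNKSR2_1 came within 3.09 FPKM of the lowest shCNKSR2_2 library, while replicate 1 lay between control and the rest.

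Group means of Ptgs2 were 93.0 ± 5.05, 184 ± 31.8 and 221 ± 3.42 FPKM (SD, n = 3), or 1.97-fold and 2.37-fold the control mean. The differences were 0.96 and 1.24 in log2(FPKM + 1) (SE 0.10). The coefficient of variation was 17.3% with shCNKSR2_1 and 1.55% with shCNKSR2_2. Between the hairpins Ptgs2 differed by 0.28 (SE 0.10, 95% interval 0.06 to 0.49), which missed the threshold (limma adjusted p = 0.0665). With each library left out in turn, that adjusted p ran from 0.00507 to 0.165 in limma. It passed under quantile normalization (0.0399), with the replicate number as a block (0.0453) and without shCNKSR2_1 replicate 2 (0.00507). Without shCNKSR2_1 replicate 1 the difference was 0.15. Without its replicates 2 and 3, which left replicate 1 alone in that group, the difference was 0.54.

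**Figure D1:**
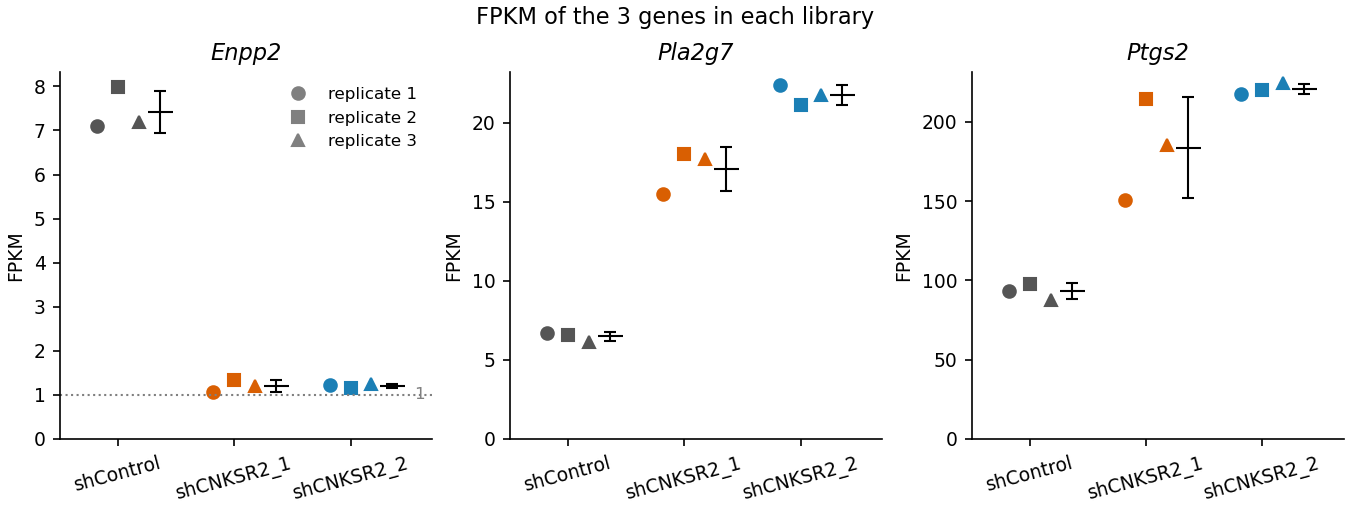
Level in FPKM (vertical axes, from 0) of Enpp2, Pla2g7 and Ptgs2 in each of the 9 libraries, with the group mean and SD (n = 3) beside the points and symbols for the replicate number. The dotted line in the Enpp2 panel marks 1 FPKM, the level every listed gene exceeds, and the 6 hairpin libraries sit between 1.07 and 1.35 FPKM just above it.

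The ratio of Pla2g7 to Enpp2 within a library summarises their opposite positions. It was 0.946, 0.825 and 0.855 in controls, 14.5, 13.4 and 14.8 with shCNKSR2_1, and 18.3, 18.3 and 17.5 with shCNKSR2_2. The enzyme that makes LPA and the enzyme that destroys PAF thus had nearly equal transcript levels in control cells and differed more than 10-fold in every hairpin library.

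The genes whose values were most alike were found by the root mean square difference over all 9 libraries, after each gene's control mean was subtracted in log2(FPKM + 1). For Enpp2 they were Cp, the ferroxidase ceruloplasmin (0.27), Zc3h12a, a ribonuclease that degrades cytokine messages (0.29), and Nfkbiz, an atypical IkB protein (0.33). Each was less far below control than Enpp2 with shCNKSR2_1, at -1.57, -1.55 and -1.45 against -1.93. For Pla2g7 they were Inhba, an activin subunit (0.17), Edil3, a secreted integrin ligand (0.19), and Calr3, a testis-type calreticulin (0.24). For Ptgs2 they were Hbegf, an EGF-receptor ligand (0.08), Cgref1, a secreted calcium-binding protein (0.08), and Atf3, a stress-induced transcription factor (0.10). Ptgs2 was number 6 in the order of likeness to Pla2g7, at 0.29, and Pla2g7 was number 41 in the order for Ptgs2. All these genes share the same 9 libraries and the same controls, and no test was made.

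**Figure D2:**
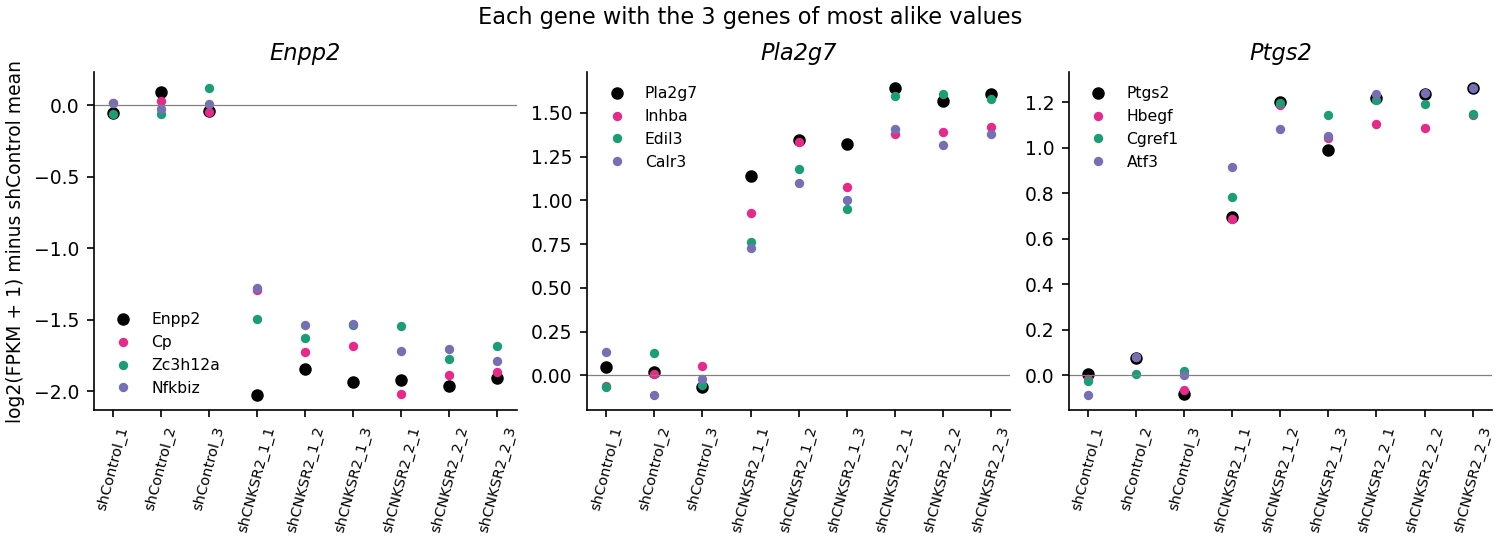
Log2(FPKM + 1) minus the shControl mean (vertical axes, separate scale per panel) in each of the 9 libraries for Enpp2, Pla2g7 and Ptgs2 (black) and the 3 genes with the smallest root mean square difference from each. Replicate 1 of shCNKSR2_1 lies nearest to control within its group for Pla2g7, Ptgs2 and their neighbours, whereas Enpp2 is farthest from control in that library.

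Other genes of lipid mediator pathways were read from 9 lists that named 124 genes, of which 71 were measured, 4 of them under older symbols. Without the 3 enzymes, 68 remained. With shCNKSR2_1, 15 of the 68 rose and 19 fell in limma, or 50.0% in all, beside 32.8% of all genes (13.6% higher and 19.3% lower). With shCNKSR2_2, 17 rose and 26 fell, or 63.2%, beside 48.2% of all genes (20.0% higher and 28.2% lower). Medians in log2(FPKM + 1) were -0.06 and -0.08, against -0.02 and -0.03 over all genes. Median-ratio rescaling turned the balance for shCNKSR2_1 to 15 that rose and 14 that fell, and quantile normalization turned it to 15 and 13.

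Around Enpp2, the 9 other measured genes of LPA production, breakdown and sensing went both ways. With shCNKSR2_1, 1 rose, 4 fell and 4 did not pass, and with shCNKSR2_2, 2 rose, 5 fell and 2 did not pass. Those calls covered 55.6% and 77.8% of the 9, beside 32.8% and 48.2% of all genes. Medians of the 9 were -0.12 and -0.19, against -0.02 and -0.03 over all genes. Ppap2b and Ppap2a, now named Plpp3 and Plpp1, encode membrane phosphatases that remove LPA outside the cell, and both fell with both hairpins. Ppap2b was 67.2 ± 2.31, 47.6 ± 0.925 and 43.9 ± 0.404 FPKM in shControl, shCNKSR2_1 and shCNKSR2_2, changes of -0.49 and -0.60 (limma adjusted p = 2.73e-06 and 3.40e-07). Ppap2a was 40.3 ± 0.709, 32.8 ± 1.56 and 29.6 ± 0.919 FPKM. The third phosphatase gene, Ppap2c (Plpp2), rose with shCNKSR2_2, from 12.5 ± 0.386 to 20.1 ± 0.743 FPKM, and it was higher than with shCNKSR2_1 by 0.57 (limma adjusted p = 0.000174).

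Of the LPA receptor genes, Lpar1 was the most abundant, at 38.1 ± 0.421 FPKM with shControl, 35.2 ± 2.81 with shCNKSR2_1 and 32.7 ± 0.321 with shCNKSR2_2. It fell by 0.21 with shCNKSR2_2 (limma adjusted p = 0.00401), and its change of -0.11 with shCNKSR2_1 did not pass (limma adjusted p = 0.0912). Lpar4 fell with both hairpins, from 2.69 ± 0.0886 to 1.79 ± 0.182 and 1.252 ± 0.169 FPKM, while Lpar2 rose, from 2.02 ± 0.0706 to 2.47 ± 0.0689 and 2.96 ± 0.110 FPKM. Lpar6 was 2.96 ± 0.289, 2.65 ± 0.127 and 2.67 ± 0.125 FPKM and did not pass in either contrast. Acp6, an LPA phosphatase of mitochondria, fell by 0.15 and 0.19, the first of which was lost in 9 of 19 alternatives (limma adjusted p from 0.0198 to 0.133). These were both rescalings and the omission of any control library, of shCNKSR2_1 replicate 1 or 2 or both 2 and 3, or of shCNKSR2_2 replicate 3. Agk, a mitochondrial kinase that can make LPA, did not pass.

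Within the Enpp family of ecto-phosphodiesterases, the 4 measured genes did not move together. Enpp1, which makes pyrophosphate from ATP outside the cell, was 3.97, 3.65 and 3.43 FPKM with shControl, 7.42, 6.92 and 7.05 with shCNKSR2_1 and 6.91, 6.77 and 7.26 with shCNKSR2_2. It rose by 0.80 and 0.77 (limma adjusted p = 1.19e-06 and 8.95e-07), so that Enpp1 lay below Enpp2 in every control library and above it in every hairpin library. Enpp3 and Enpp4 fell with shCNKSR2_2, by 0.54 and 0.25, and stayed at -0.03 and 0.03 with shCNKSR2_1, where neither passed. Both were lower with shCNKSR2_2 than with shCNKSR2_1 (-0.51 and -0.28, limma adjusted p = 0.000203 and 0.00282).

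Enpp2 is also expressed by fat cells, and 4 of 8 adipocyte markers were measured, Fabp4, Lpl, Lipe and Retn. Their summed level was 20.1 to 22.0 FPKM with shControl, 14.0 to 19.6 with shCNKSR2_1 and 9.73 to 10.2 with shCNKSR2_2. The 4 markers did not move alike. Fabp4, a fatty acid carrier of fat cells, was 8.32 ± 0.769, 2.43 ± 0.371 and 2.75 ± 0.293 FPKM, lower than control with both hairpins like Enpp2 (-1.44 and -1.31), with hairpin groups that overlapped. Lpl and Retn were at 0.04 and 0.31 with shCNKSR2_1 and at -0.68 and -0.85 with shCNKSR2_2, and Lipe was at -0.14 and -0.33. The part of fat-like cells in the Enpp2 result was not tested. Cd68 and Cd14, the 2 measured blood cell markers, summed to 7.47 to 8.52, 7.94 to 8.97 and 7.96 to 8.30 FPKM. Cd68 was 2.498 ± 0.543, 3.25 ± 0.313 and 3.04 ± 0.368 FPKM (0.29 and 0.22), and Cd14 was at -0.10 and -0.11, none of which passed. Macrophages express Pla2g7 strongly, and their part in the Pla2g7 result was not tested.

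Among the PAF genes, Pla2g7 was set beside 7 others. With each hairpin 3 of the 7 rose, 0 fell and 4 did not pass in limma. That was 42.9% with each, beside 32.8% of all genes with shCNKSR2_1 and 48.2% with shCNKSR2_2. Medians of the 7 were 0.07 and 0.06, against -0.02 and -0.03 over all genes. Pafah2, the intracellular relative of Pla2g7, was 11.9 ± 0.576, 13.8 ± 0.507 and 13.9 ± 0.483 FPKM, a rise of 0.20 with each (limma adjusted p = 0.00655 and 0.00352). The ratio of Pla2g7 to Pafah2 was 0.490 to 0.576 in controls, 1.17 to 1.28 with shCNKSR2_1 and 1.54 to 1.61 with shCNKSR2_2, so the secreted form passed the intracellular form in every hairpin library.

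Lpcat1, an acyltransferase that can also acetylate lyso-PAF to PAF, went from 17.2 ± 0.443 to 19.2 ± 0.986 and 21.8 ± 0.409 FPKM. Its rise with shCNKSR2_1 (0.14, limma adjusted p = 0.0220) was lost in 6 of 19 alternatives (range 0.00346 to 0.382), among them the omission of shCNKSR2_1 replicate 2 or 3 or shControl replicate 1 or 2. Pafah1b1 (Lis1), the regulatory subunit of the brain-type acetylhydrolase and a dynein regulator, rose by 0.12 and 0.27. Its catalytic partners Pafah1b2 and Pafah1b3 were at -0.10 and -0.09 and at -0.04 and -0.10 and did not pass. Chpt1 and Cept1, phosphotransferases that can complete PAF synthesis, did not pass either. Pafah2 and Pafah1b1 passed with shCNKSR2_1 in 18 of 19 alternatives each, all but the fit that left its replicate 1 alone in the group.

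**Figure D3:**
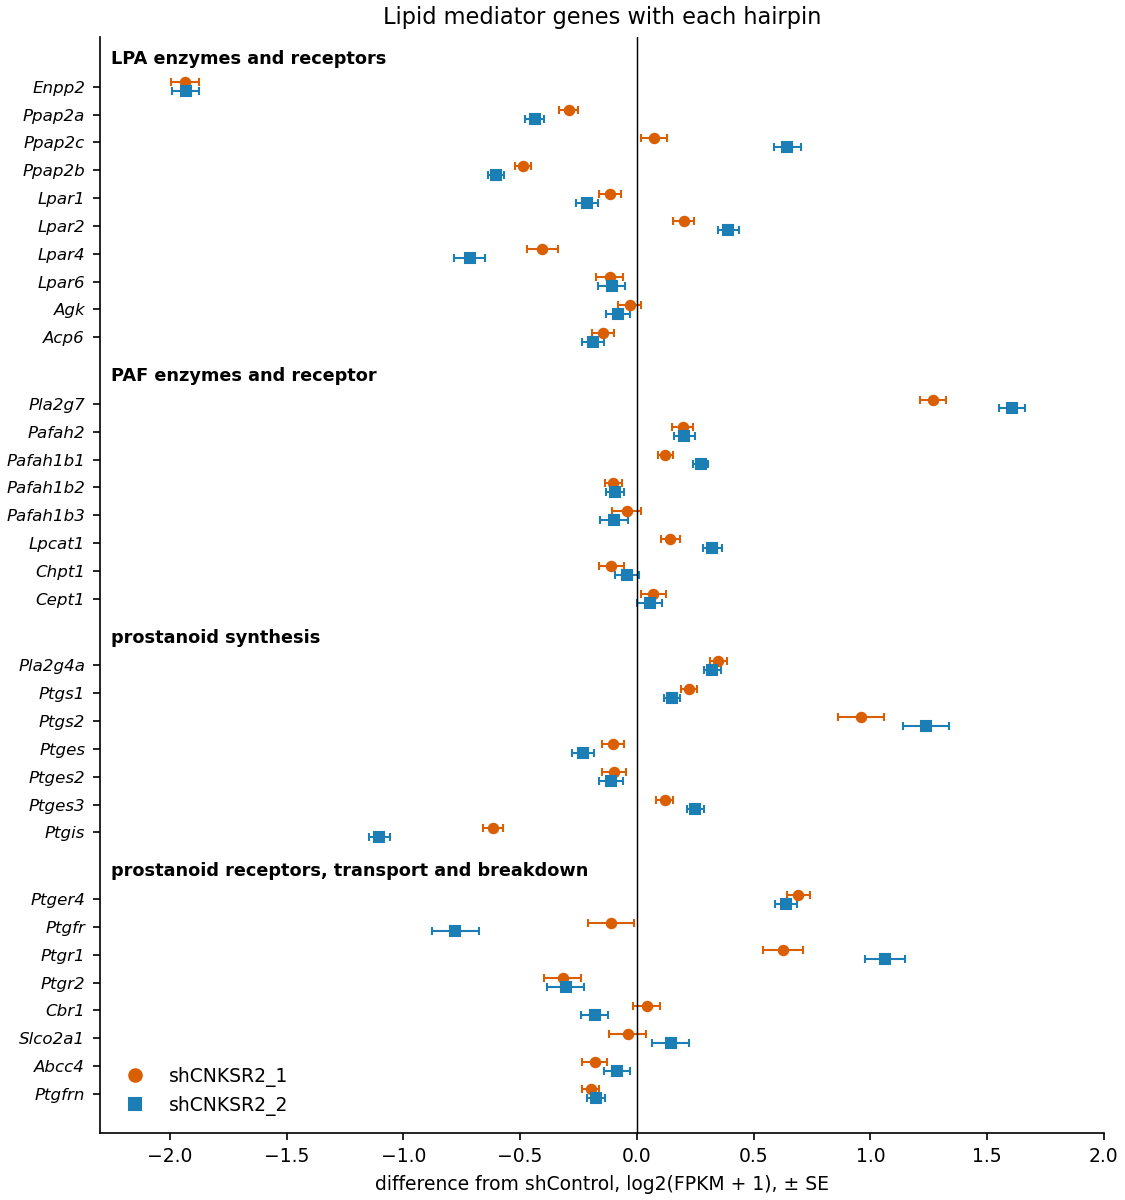
Difference from shControl in log2(FPKM + 1) with its SE (horizontal axis) for every measured gene of 4 lipid mediator lists, with circles for shCNKSR2_1 and squares for shCNKSR2_2. Enpp2 at -1.93 lies farthest to the left, and Pla2g7 (1.27 and 1.61) and Ptgs2 (0.96 and 1.24) lie among the farthest to the right.

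Prostanoid synthesis starts with the release of arachidonic acid by cytosolic phospholipase A2, the product of Pla2g4a. This gene rose from 62.7 ± 1.69 FPKM to 80.1 ± 2.02 with shCNKSR2_1 and 78.7 ± 2.51 with shCNKSR2_2 (0.35 and 0.32, limma adjusted p = 5.28e-05 and 4.51e-05). Ptgs1, the constitutive cyclooxygenase, was 56.4, 54.2 and 58.4 FPKM with shControl, 66.0, 64.4 and 67.3 with shCNKSR2_1 and 63.1, 61.9 and 62.8 with shCNKSR2_2. It rose by 0.22 and 0.15 (limma adjusted p = 0.000830 and 0.00509), a smaller step than that of Ptgs2. The share of Ptgs2 in the summed FPKM of both cyclooxygenases was 60.0% to 64.4% in controls, 69.6% to 76.9% with shCNKSR2_1 and 77.5% to 78.1% with shCNKSR2_2. The groups did not overlap in that share, which is built from Ptgs2, a gene chosen for its difference from control. The FPKM of Ptgs2 alone did not overlap either. Over all genes, 44.2% did not overlap between shCNKSR2_1 and control, 59.6% between shCNKSR2_2 and control and 37.9% between the hairpins.

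**Figure D4:**
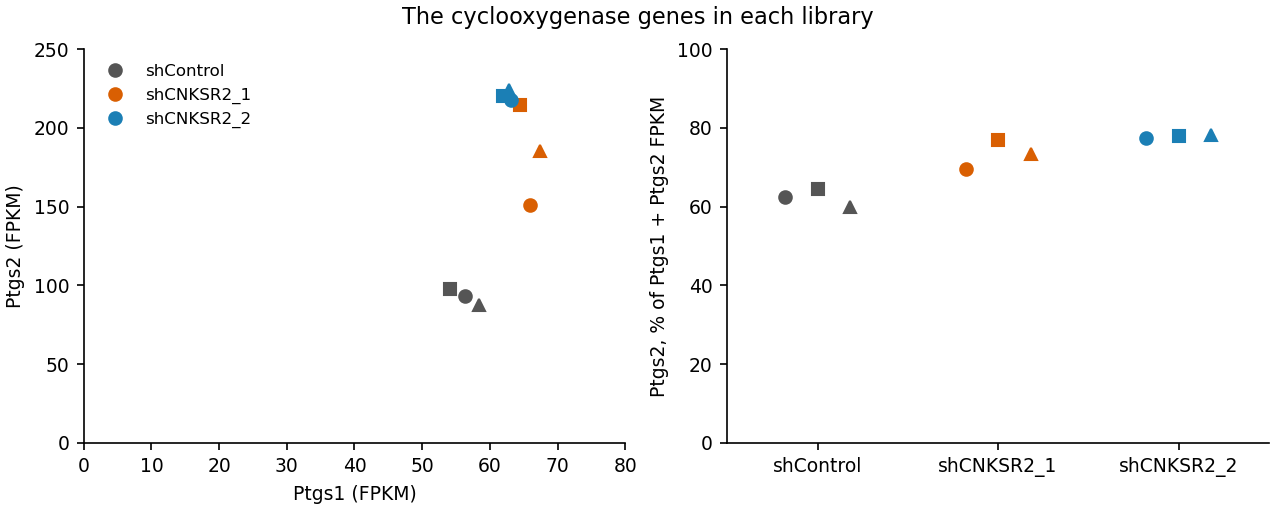
Left, Ptgs2 against Ptgs1 in FPKM for each library. Right, Ptgs2 as a percentage of the summed FPKM of both genes in each library (symbols are replicates 1 to 3 as circle, square and triangle), with shControl at 60.0% to 64.4% and shCNKSR2_2 at 77.5% to 78.1%.

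Among the terminal synthases, which act after the cyclooxygenases, directions differed. Ptgis, the prostacyclin synthase, was 23.2, 23.01 and 25.7 FPKM with shControl, 15.4, 15.1 and 15.4 with shCNKSR2_1 and 10.8, 10.6 and 10.4 with shCNKSR2_2. It fell by 0.62 and 1.10 (limma adjusted p = 2.93e-06 and 2.82e-08) and was lower with shCNKSR2_2 than with shCNKSR2_1 by 0.49 (limma adjusted p = 0.000114). Its groups did not overlap, as held for 44.2%, 59.6% and 37.9% of all genes in these contrasts. Ptges, the inducible prostaglandin E synthase, was 21.3 ± 0.106, 19.8 ± 1.51 and 17.99 ± 0.131 FPKM and fell by 0.23 with shCNKSR2_2 (limma adjusted p = 0.00231). Ptges2, another such synthase, was at -0.10 and -0.11 and did not pass. Ptges3, which encodes the abundant co-chaperone p23 and has been described as a further synthase, went from 219 ± 8.20 to 238 ± 7.05 and 260 ± 2.51 FPKM. Its rise with shCNKSR2_1 (0.12, limma adjusted p = 0.0294) was lost in 6 of 19 alternatives (range 0.0110 to 0.348), among them the omission of shControl replicate 3 or shCNKSR2_1 replicate 2 or 3.

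Over the 6 measured genes of prostanoid synthesis other than Ptgs2, 3 rose, 1 fell and 2 did not pass with shCNKSR2_1, and 3 rose, 2 fell and 1 did not pass with shCNKSR2_2. The share called was 66.7% and 83.3%, beside 32.8% and 48.2% of all genes. Medians of the 6 were 0.01 and 0.02.

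Of the genes that sense, carry and break down prostanoids, 8 were measured. With shCNKSR2_1, 2 rose, 3 fell and 3 did not pass, and with shCNKSR2_2, 2 rose, 4 fell and 2 did not pass. Over all genes, calls in these contrasts covered 32.8% and 48.2%. Ptger4, which encodes the EP4 receptor for prostaglandin E2, was 4.45 ± 0.290, 7.80 ± 0.159 and 7.49 ± 0.365 FPKM. It rose by 0.69 and 0.64 (limma adjusted p = 2.90e-06 and 2.66e-06) and was the one measured gene among Ptger1 to Ptger4. Ptgfr, the receptor for prostaglandin F2alpha, fell with shCNKSR2_2, from 11.9 ± 1.16 to 6.52 ± 0.306 FPKM, and was at 11.0 ± 1.99 FPKM with shCNKSR2_1. The hairpins differed at Ptgfr by -0.67 (limma adjusted p = 0.00129).

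Ptgr1, a reductase that inactivates oxidised prostaglandins and leukotriene B4, rose from 45.5 ± 0.356 FPKM to 71.5 ± 11.1 and 96.1 ± 0.616. Its libraries with shCNKSR2_1 held 58.9, 80.1 and 75.4 FPKM, with replicate 1 again nearest to control. The change was 0.63 and 1.06 (limma adjusted p = 0.000319 and 4.06e-06). Its relative Ptgr2 fell, from 3.15 ± 0.0414 to 2.34 ± 0.370 and 2.37 ± 0.267 FPKM. Slco2a1, the uptake carrier that clears prostaglandins from outside the cell, was 31.3 ± 1.62, 30.6 ± 3.90 and 34.7 ± 1.68 FPKM and did not pass. Abcc4, an exporter of prostaglandins, fell by 0.18 with shCNKSR2_1 (limma adjusted p = 0.0283), a call lost in 5 of 18 alternatives (range 0.00727 to 0.121), among them the omission of shControl replicate 1 or 2 or shCNKSR2_1 replicate 1.

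Of other lipid mediator routes, 8 of 13 sphingosine 1-phosphate, 7 of 12 endocannabinoid and 4 of 18 lipoxygenase-pathway genes were measured. Of 8 genes of sphingosine 1-phosphate, 1 rose and 3 fell with shCNKSR2_1 and 2 rose and 3 fell with shCNKSR2_2. Calls were thus made for 50.0% and 62.5%, beside 32.8% and 48.2% of all genes. The genes that fell with both were the receptors S1pr1, S1pr2 and S1pr3, of which S1pr3 went from 21.2 ± 0.587 to 15.4 ± 1.60 and 11.1 ± 0.130 FPKM (-0.44 and -0.87). The fall of S1pr1 with shCNKSR2_1 (-0.27, limma adjusted p = 0.0267) was lost in 6 of 19 alternatives (range 7.04e-05 to 0.717), among them the omission of shControl replicate 1 or 2 or shCNKSR2_1 replicate 2 or 3. Sgpl1, the lyase that ends the signal, rose by 0.19 and 0.46. Of 7 endocannabinoid genes, 1 rose and 3 fell with shCNKSR2_1 and 1 rose and 4 fell with shCNKSR2_2. That was 57.1% and 71.4%, beside the same 32.8% and 48.2% of all genes. The rise, that of Abhd4, was lost with shCNKSR2_1 in 8 of 19 alternatives (limma adjusted p from 0.0130 to 0.278), among them the omission of shControl replicate 1 or 2, shCNKSR2_1 replicate 2 or 3, or shCNKSR2_2 replicate 2. Naaa, an amidase that breaks down fatty acid ethanolamides, fell by 0.46 and 0.63, and Napepld, which makes them, by 0.23 and 0.33. Fabp5, a carrier of these lipids, fell by 0.30 and 0.20, and Daglb, a diacylglycerol lipase, fell by 0.34 with shCNKSR2_2.

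Of 4 measured lipoxygenase-pathway genes, 2 rose, 1 fell and 1 did not pass with shCNKSR2_1. With shCNKSR2_2, 1 rose, 2 fell and 1 did not pass. Calls in these contrasts covered 32.8% and 48.2% of all genes. Ephx1, an epoxide hydrolase, fell by 0.24 and 0.52, Lta4h, which makes leukotriene B4, rose by 0.12 and 0.25, Mgst2 fell by 0.51 with shCNKSR2_2, and Mgst3 rose by 0.20 with shCNKSR2_1. Among 17 phospholipase A2 and lysophospholipase genes other than Pla2g7, 2 rose and 4 fell with shCNKSR2_1, and 3 rose and 4 fell with shCNKSR2_2. These shares, 35.3% and 41.2%, lay near or below the 32.8% and 48.2% of all genes. The 4 falls with shCNKSR2_1 went to 0 under median-ratio rescaling and quantile normalization, in the fit of only the groups compared, and without shControl replicate 1 or 2 or replicate 2 or 3 of either hairpin. The 2 that rose with both were Pla2g4a and Ddhd1, a phospholipase A1 that prefers phosphatidic acid, which rose by 0.36 and 0.48. Gpcpd1, a glycerophosphocholine phosphodiesterase, fell by 0.18 and 0.48, and Pla2r1, a receptor for secreted phospholipases A2, fell by 0.47 with shCNKSR2_2. The fall of Gpcpd1 with shCNKSR2_1 was lost in 10 of 19 alternatives (limma adjusted p from 0.010 to 0.485), among them the omission of shControl replicate 1 or 2, or of replicate 2 or 3 of either hairpin. The rise of Lta4h with shCNKSR2_1 was lost in 6 of 19 alternatives (limma adjusted p from 0.0128 to 0.148), among them the omission of shControl replicate 2 or 3 or shCNKSR2_1 replicate 2. That of Mgst3 was lost in 4 of 19 (limma adjusted p from 0.0152 to 0.155), without shControl replicate 1 or 2, shCNKSR2_1 replicate 3, or its replicates 2 and 3.

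Between the hairpins, 11 of the 68 other genes were higher and 18 lower with shCNKSR2_2, or 42.6%, beside 20.5% of all genes. Without shCNKSR2_2 replicate 2 these counts were 6 and 11, and without replicate 3 they were 7 and 12. Over all genes the same omissions gave 1231 and 1208 calls, against 2121 with all libraries.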

How the data were processed

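Per the labels, RNA of 9 cultures in 3 groups was isolated with a Qiagen miRNeasy kit and made into TruSeq Stranded mRNA libraries. The authors deposited 1 table of FPKM values with a column for each culture. The submitters' processing notes name STAR (version 25.1b as written), Cufflinks 2.2.1 and the mm9 mouse genome. The role of each tool and the annotation are not given in the sources used here. All 10340 genes of the table exceeded 1 FPKM in every library. Without fragment counts the depth is unknown, and intervals for counting error were not computed.

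The scale was log2(FPKM + 1). A single limma 3.58.1 fit in R 4.3.3 (lmFit and eBayes, trend=TRUE) took in the 9 libraries with 3 group means and 6 residual degrees of freedom, no covariate and no filter. Tests were two-sided with Benjamini-Hochberg adjustment over 10340 genes per contrast, and the threshold was an adjusted p of 0.05. The added 1 makes differences of genes near 1 FPKM smaller than their log2 ratio. The procedure was tested on simulated data. Both hairpin contrasts share the control libraries.

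The 3 genes, the 9 lists, the markers and the motifs were chosen with earlier results of these data known. Named genes were the 3 enzymes, the measured genes acting on their substrates or products, up to 4 called genes of each other list by mean size of change, and the 3 most alike genes for each enzyme. Enpp1, Enpp3 and Enpp4, Acp6, Agk, Chpt1 and Cept1 belong to lists named in full, and Abhd4 and the single fat and blood cell markers were named after their values were seen. Promoters came from RefSeq on GRCm38.p6 and were matched by symbol only. No coordinates of mm9 are given. Alternatives were pseudocounts of 0.1 and 0.01 FPKM, minimum means of 2 and 5 FPKM, median-ratio rescaling, an eBayes without the variance trend, the replicate number as a block, quantile normalization, only the groups compared, each library left out, and, added after the data were seen, shCNKSR2_1 replicates 2 and 3 left out together. The last of these leaves replicate 1 alone in the shCNKSR2_1 group.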

Additional observations from a re-analysis of the deposited data

How the results depend on the processing

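Every difference of Enpp2, Pla2g7 and Ptgs2 from control kept its direction under all alternatives that gave a value. A minimum mean of 5 FPKM removed Enpp2. With pseudocounts of 0.1 and 0.01 FPKM, Enpp2 was at -2.53 and -2.62 with shCNKSR2_1 and -2.53 and -2.61 with shCNKSR2_2, and Pla2g7 at 1.38 and 1.39 and at 1.73 and 1.75, as smaller pseudocounts compress low values less. Quantile normalization put Enpp2 with shCNKSR2_2 at -1.86. Leaving out each library in turn gave -1.98 to -1.89 and -1.96 to -1.89 for Enpp2, 1.23 to 1.33 and 1.57 to 1.63 for Pla2g7, and 0.84 to 1.09 and 1.20 to 1.28 for Ptgs2. Without shCNKSR2_1 replicates 2 and 3, Enpp2, Pla2g7 and Ptgs2 were at -2.02, 1.14 and 0.69 with that hairpin, 1860 genes were called (3396 with all libraries), and 19 of the 68 other lipid genes (34 with all).

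Between the hairpins, Pla2g7 passed under all 19 alternatives (0.27 to 0.37 with each library left out). Ptgs2 passed under quantile normalization (0.30, limma adjusted p = 0.0399) and without shCNKSR2_1 replicate 2 (0.40, limma adjusted p = 0.00507). It ranged from 0.15 to 0.40 with each library left out, and was at 0.54 with shCNKSR2_1 replicate 1 alone in its group. The cause was not tested. The difference of Enpp2, close to 0, changed sign without shCNKSR2_1 replicate 1 (-0.0427), shCNKSR2_2 replicate 1 (-0.003) or replicate 3 (-0.009), and ranged from -0.0427 to 0.0482. With each library left out, 1208 to 2333 genes were called between the hairpins and 17 to 31 of the 68, fewest without shCNKSR2_2 replicate 3 or 2 (1208 and 1231, and 19 and 17). The other 2 contrasts gave 2504 to 3894 and 4075 to 5355 genes and 23 to 34 and 42 to 46 of the 68.

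The replicate number as a block gave 3205, 4827 and 1944 genes called against 3396, 4984 and 2121, and brought Ptgs2 between the hairpins past the threshold (0.28, adjusted p = 0.0453). Deviations of same-numbered libraries did not all correlate (r from -0.319 to 0.428 over 9 pairings), and a library correlated best with its own number in 8 of 18 comparisons. These mixed values cannot settle whether the numbers pair the cultures. Scaling moved the balance over all genes from 1405 higher and 1991 lower with shCNKSR2_1 to 1794 and 1564 (median-ratio) and 1661 and 1615 (quantile), and from 2066 and 2918 with shCNKSR2_2 to 2460 and 2424 and 2533 and 2296. Of 106 calls of other lipid genes, 34 were lost in at least 1 alternative and 0 changed direction.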
